A study of Mus musculus with 9 samples.

Results

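Dendritic cells are the leukocytes that pick up antigen in tissues such as the airway wall and carry it to T cells. Their subsets are told apart by the genes they use, and 10 of those genes are described here across lungs of mice given saline, lipopolysaccharide (LPS), or LPS followed by the herbal decoction Renshen Baidu Powder (RSBD). The 10 genes were taken by name from the 21930 genes of the count table. Xcr1, Clec9a, Batf3, Irf8 and Itgae stand for type 1 conventional dendritic cells (cDC1), Cd209a for type 2 conventional dendritic cells (cDC2), Flt3 and Zbtb46 for the conventional lineage as a whole, Siglech for plasmacytoid dendritic cells, and Fscn1 for mature, migrating dendritic cells. All 10 passed the filter on low counts, which left 15636 genes for testing.

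The mice were C57BL/6 animals of 6 to 8 weeks, all labelled male and all anaesthetised with tribromoethanol. Whole lung was taken on day 5. The 3 control libraries came from mice given sterile saline into the trachea and the 3 LPS libraries from mice given 2 mg/kg LPS, the cell wall endotoxin of Gram-negative bacteria, by the same route. In the 3 LPS plus RSBD libraries (called RSBD below), LPS was followed from the next day by RSBD, by daily gavage. Vehicle gavage is the alternative named in the protocol, which gives no RSBD dose. Since whole lung was sequenced, fewer cells of a type and less RNA per cell cannot be told apart, and no dendritic cell was sorted.

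As background, cDC1 develop under the transcription factors Irf8 and Batf3 and hand material from dead cells to CD8 T cells, while cDC2 depend more on Irf4 and mainly address CD4 T cells. Both arise from precursors that answer to Flt3 ligand through the receptor Flt3. Plasmacytoid dendritic cells develop under Tcf4 and are known for making type I interferon when they sense nucleic acids through Tlr7 and Tlr9. Several of these genes are used by other lung cells too: Irf8 by B cells and macrophages, Itgae by resident T cells, Zbtb46 by endothelium and Fscn1 by a range of structural cells.

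The DNA just before the start of 4 of the genes is shown because they carry the results: Siglech and Flt3 rose after LPS, Clec9a fell, and Xcr1, its partner in the same cell type, differed in the other direction without passing the test. RefSeq promoter windows (GRCm38.p6, 250 bases before the start) were found for 9 of the 10 members. The window of Xcr1 is chr9:123862030-123862279 on the minus strand, that of Clec9a chr6:129408612-129408861 on the plus strand, that of Flt3 chr5:147400490-147400739 on the minus strand, and that of Siglech chr7:55767934-55768177 on the plus strand, cut to 244 bases where an annotated exon begins. Each is written 5′ to 3′ on the gene's own strand, and capitals mark a match to TTCNNNGAA.
Xcr1: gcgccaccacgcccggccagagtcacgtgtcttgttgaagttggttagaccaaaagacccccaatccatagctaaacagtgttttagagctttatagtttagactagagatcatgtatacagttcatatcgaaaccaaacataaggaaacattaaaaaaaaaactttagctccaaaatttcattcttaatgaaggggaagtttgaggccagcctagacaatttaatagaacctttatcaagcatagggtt
Clec9a: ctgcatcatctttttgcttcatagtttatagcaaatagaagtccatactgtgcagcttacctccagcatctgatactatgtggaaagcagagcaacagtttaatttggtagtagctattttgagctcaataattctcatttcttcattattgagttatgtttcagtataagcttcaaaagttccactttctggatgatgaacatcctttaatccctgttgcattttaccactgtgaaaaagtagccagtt
Flt3: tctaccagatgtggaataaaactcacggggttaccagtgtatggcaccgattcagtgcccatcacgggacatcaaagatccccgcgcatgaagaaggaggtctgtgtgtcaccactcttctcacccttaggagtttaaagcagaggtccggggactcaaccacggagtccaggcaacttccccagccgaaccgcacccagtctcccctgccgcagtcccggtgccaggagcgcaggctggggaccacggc
Siglech: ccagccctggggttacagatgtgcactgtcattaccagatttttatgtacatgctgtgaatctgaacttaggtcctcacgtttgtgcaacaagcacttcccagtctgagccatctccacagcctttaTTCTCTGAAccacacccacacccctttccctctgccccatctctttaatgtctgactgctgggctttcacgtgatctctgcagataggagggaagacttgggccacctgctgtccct

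The motifs searched, on both strands, were GAAA, any 2 bases and GAAA again (interferon-stimulated response element core), GGAA, any 2 bases and GAAA (ETS-IRF composite element), TGANTCA (AP-1 site), AGGAAGT (PU.1-type ETS site), CAGCTG (an E-box) and TTCNNNGAA (gamma-activated site), which was added after the sequences had been seen. The first 2 can share letters. In the 32851 windows of this length they matched 2.98%, 2.3%, 6.75%, 7.69%, 13% and 7.02%. Among the members, TTCNNNGAA matched once in Siglech, once in Batf3 and at 2 places in Irf8, and TGANTCA once in Zbtb46, with no other match. The windows of Batf3 (chr1:191098164-191098413) and Zbtb46 (chr2:181424389-181424638) lie inside the annotated gene spans given below. Their matches therefore do not lie before those annotated starts. The windows also differed in base composition: G and C made up 35.6% of that of Clec9a and 38.8% of that of Xcr1, but 59.2% of that of Flt3 and 50.8% of that of Siglech, beside a median of 52.4% over all windows. The Clec9a window lies inside the annotated span of its neighbour Clec1b.

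Libraries held 26959662 to 36113905 counted reads. The 3 control libraries held 6 to 9 reads on chromosome Y genes and the other 6 held 7511 to 10918, although all 9 are labelled male, so every difference from control is also one between libraries with and without chromosome Y transcripts, and the 2 cannot be told apart. The labels do not say that each library is a separate animal, so p-values measure the spread between libraries only. Levels are given as counts per 1000000 after TMM scaling (CPM), with mean ± SD (n = 3). Differences are log2 fold changes ± SE from the quasi-likelihood test of edgeR, whose p-values were adjusted by Benjamini-Hochberg over the 15636 genes and called at 0.05. Levels of different genes are ranked in TPM, a scale per 1000000 transcripts that allows for gene length. Reads of overlapping or neighbouring genes, and reads per Ptprc or Clec1a read, are given only to compare libraries.

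In control lungs the highest levels in TPM were those of Clec9a (46.1 ± 5.51 TPM), Irf8 (42.9 ± 3.45 TPM) and Zbtb46 (28.8 ± 2.30 TPM). Clec9a and Irf8 overlapped between libraries, and Zbtb46 lay below both in every control library. Cd209a (11.7 ± 6.77 TPM), Fscn1 (8.30 ± 2.40 TPM) and Batf3 (8.21 ± 1.93 TPM) came next and overlapped each other. Flt3 measured 3.39 ± 0.144 TPM and Itgae 2.27 ± 0.361 TPM, and Xcr1 (1.24 ± 0.207 TPM) and Siglech (1.09 ± 0.302 TPM) were lowest and overlapped. Clec9a and Xcr1, both regarded as cDC1 genes, stood near opposite ends of this order. In LPS libraries Irf8 (47.6 ± 6.74 TPM) stood above Clec9a (28.2 ± 5.57 TPM), with no overlap between them, and Siglech (3.56 ± 0.554 TPM) above Xcr1 (2.45 ± 0.226 TPM).

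**Figure D1:**
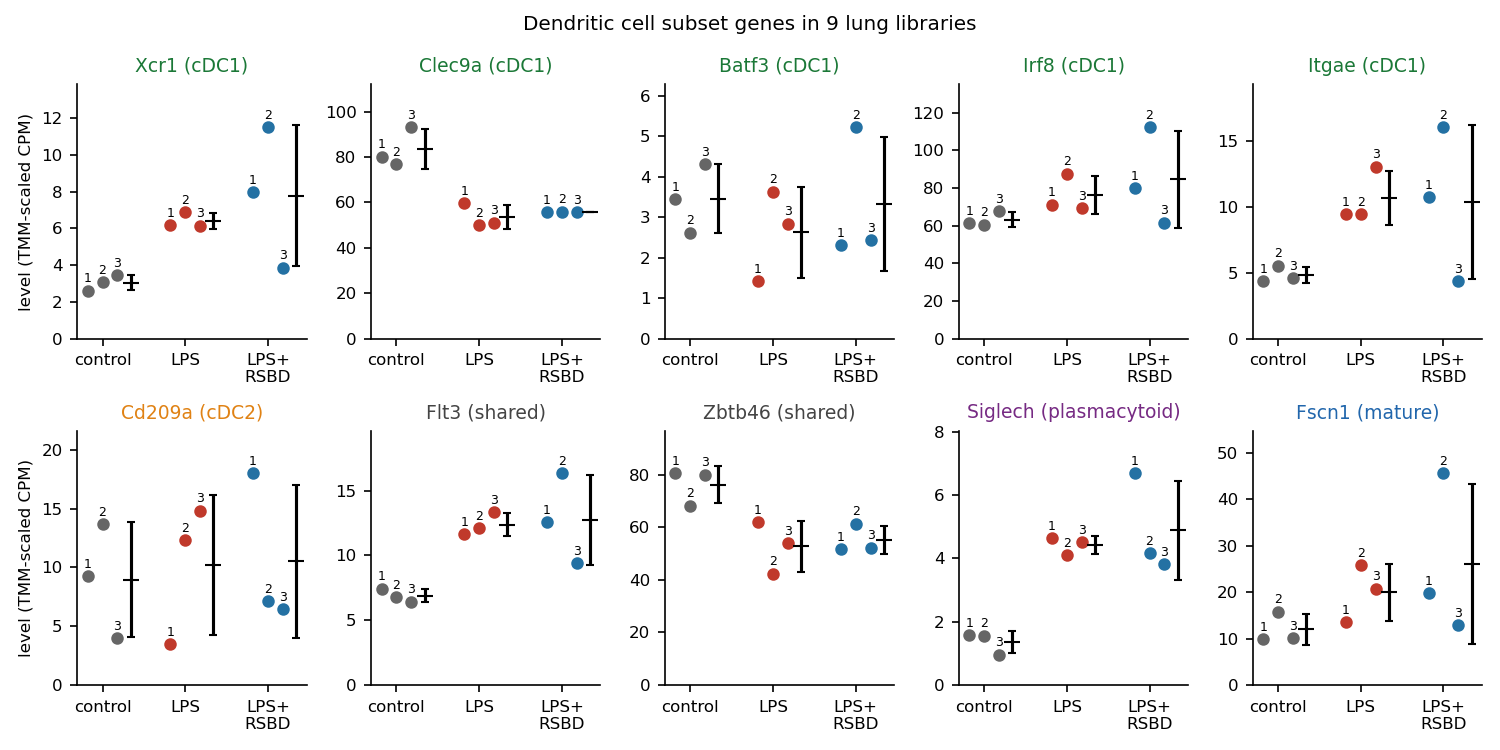
Normalised CPM of each of the 10 genes (vertical axes, each starting at 0) in every control, LPS and LPS plus RSBD library, with points numbered by replicate and a black bar for mean ± SD beside each group. Clec9a and Zbtb46 were lower in every LPS and RSBD library than in every control library, and Siglech and Flt3 higher.

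After LPS, 2 of the 10 members rose (Siglech and Flt3), 2 fell (Clec9a and Zbtb46) and 6 did not pass the test. Over all genes tested, 17.4% were called, 8.79% higher and 8.63% lower. The groups did not overlap in 7 of the 10 members, against 38% of all genes, and the members' median log2 difference was 0.51, against -0.01 over all genes. The members had been chosen with earlier results of these data known, so these shares are no test of the members as a set. With control 2, control 3 or LPS 2 left out, 2 of the 10 members were called in place of 4. The share of all genes called fell in the same fits, from 17.4% to 5.66%, 6.33% and 4.98%.

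Siglech, a sialic acid-binding lectin of plasmacytoid dendritic cells (ENSMUSG00000051504, mm10 chromosome 7, 55768178 to 55778925), measured 1.58, 1.56 and 0.961 CPM in the control libraries and 4.64, 4.11 and 4.51 CPM in the LPS libraries. All LPS libraries lay well above all control libraries, and the LPS libraries lay close together. The gene rose 3.22-fold (1.69 ± 0.30, adjusted p = 0.00788), more than any other member, and kept this call in all 17 alternatives (highest adjusted p = 0.0312). The counts behind it were small, at 27 to 49 reads per control library and 124 to 126 per LPS library. Relative to Ptprc, the gene of the pan-leukocyte antigen CD45, it was also higher: control libraries had 4.23, 4.53 and 2.92 Siglech reads per 1000 Ptprc reads and LPS libraries 6.80, 8.31 and 11.4, with no overlap. Ptprc itself measured 349 ± 22.9 CPM in the controls and 524 ± 146 CPM in LPS libraries (0.59 ± 0.21, adjusted p = 0.0862).

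Flt3, the receptor for the growth factor Flt3 ligand (ENSMUSG00000042817, chromosome 5, 147330741 to 147400489), measured 7.42, 6.78 and 6.44 CPM in control libraries and 11.7, 12.1 and 13.3 CPM in LPS libraries. Every LPS library was above every control library. It rose 1.80-fold (0.85 ± 0.19, adjusted p = 0.0198), with adjusted p from 0.000898 to 0.0677 over 17 alternatives. The call was lost without control 2, control 3 or LPS 2 (adjusted p = 0.0668, 0.0677 and 0.0614) and in limma on log2(TPM + 1) with no filter (0.0574). Per 1000 Ptprc reads the groups overlapped, at 19.8, 19.7 and 19.6 Flt3 reads in the controls and 17.1, 24.5 and 33.8 in LPS libraries. The LPS library with the lowest ratio was LPS 1. Its 5′ end shares 936 bases with an antisense gene, Gm26597. Library preparation kept strand, but whether the counting used it is not given in the sources used here.

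Clec9a, the receptor with which cDC1 recognise actin exposed by dead cells (ENSMUSG00000046080, chromosome 6, 129408862 to 129424763), measured 80.2, 76.8 and 93.4 CPM in the controls and 59.7, 49.9 and 51.1 CPM in LPS libraries. It was lower in 3 of 3 LPS libraries than in any control library. It fell by 0.64 ± 0.10 on the log2 scale (adjusted p = 0.00528) and kept the call in all 17 alternatives (highest adjusted p = 0.0298). Its neighbours are also C-type lectin genes. Clec1b overlaps it by 474 bases on the same strand (616 to 1141 reads per library, log2 difference 0.03 ± 0.22, adjusted p = 0.931), and Clec1a, a lectin gene of endothelium, ends 8 bases away on the opposite strand and had 5203 to 8142 reads per library.

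Clec1a differed in the same direction as Clec9a without passing the test, from 275 ± 20.5 CPM in control to 203 ± 9.05 CPM in LPS libraries (-0.44 ± 0.14, adjusted p = 0.0559). Clec9a reads per 100 Clec1a reads were 28.2, 30.5 and 32.2 in the controls and 28.1, 25.7 and 25.2 in LPS libraries (difference -4.00, exact permutation p = 0.1, 2-sided, the smallest that 3 against 3 allows; adjusted 0.18 over 9 comparisons). RSBD libraries, at 30.1, 33.3 and 22.0, spanned both groups. How far reads of Clec1a were counted for Clec9a was not tested.

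Zbtb46, a zinc finger transcription factor of conventional dendritic cells (ENSMUSG00000027583, chromosome 2, 181387762 to 181459426), measured 80.5, 68.2 and 80.02 CPM in the controls and 61.9, 42.4 and 54.01 CPM in LPS libraries. The highest LPS library lay below the lowest control library. It fell by 0.53 ± 0.14 (adjusted p = 0.0293, lowest over 17 alternatives 0.00679). The call was lost without any 1 of the control libraries, LPS 2 or LPS 3 (adjusted p = 0.0505 to 0.0899). It was also lost in limma on log2(TPM + 1) with no filter (0.0637). Endothelial cells also use this gene. Of the 6 genes of the endothelial list, 2 rose (Pecam1 and Cdh5, the adhesion molecules CD31 and VE-cadherin, by 0.34 and 0.53). The other 4 did not pass. Of these, the receptors Tie1 (-0.15 ± 0.10, adjusted p = 0.317) and Kdr (-0.15 ± 0.11, adjusted p = 0.374) lay below control. Cldn5 (132 ± 17.8 CPM in control, 164 ± 24.3 CPM in LPS libraries) and Tek (391 ± 28.8 and 393 ± 45.8 CPM) lay above it. The summed level of the list was 2459 to 2602 CPM in control, 2763 to 3048 CPM in LPS and 2767 to 2943 CPM in RSBD libraries. Pecam1 and Cdh5 make up a large part of that sum. The part of endothelium in the level of Zbtb46 was not tested.

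Clec9a and Zbtb46 were lower relative to Ptprc as well, with no overlap between LPS and control libraries. Ptprc itself was higher in every LPS library (394.6 to 683 CPM) than in every control library (329 to 374.1 CPM). Genes already lower in every LPS library in CPM therefore had to separate on this scale, which adds no support. Clec9a had on average 240.3 reads per 1000 Ptprc reads in the controls and 106 in LPS libraries, and Zbtb46 219 and 104. Batf3 also separated on this scale, at 9.96 and 5.53 reads per 1000 Ptprc reads, without doing so in CPM. Xcr1, Irf8, Itgae, Cd209a and Fscn1 overlapped between these groups per 1000 Ptprc reads.

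Xcr1, the chemokine receptor by which cDC1 are attracted to Xcl1 from NK and T cells (ENSMUSG00000060509, chromosome 9, 123852315 to 123862029), measured 2.60, 3.06 and 3.45 CPM in the controls and 6.17, 6.89 and 6.14 CPM in LPS libraries. Each LPS library was above each control library. The difference of 1.07 ± 0.34 just missed the threshold (adjusted p = 0.0514). It passed with DESeq2 (adjusted p = 0.0130), with only these 2 groups fitted (0.0134), without RSBD 2 (0.0310) and without RSBD 3 (0.0115), and not in the other 13 alternatives (highest 0.149). Reads ran from 74 to 97 per control library and from 166 to 211 per LPS library.

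Itgae, the integrin alpha E chain (CD103) that binds E-cadherin on epithelium (ENSMUSG00000005947, chromosome 11, 73090583 to 73147446), behaved like Xcr1 in this comparison. It measured 4.36, 5.51 and 4.55 CPM in the controls and 9.44, 9.44 and 13.01 CPM in LPS libraries, with no overlap (1.14 ± 0.39, adjusted p = 0.0689). The difference passed the threshold under the same 4 alternatives as that of Xcr1 (adjusted p = 0.0136, 0.00956, 0.0373 and 0.0102). T cells also carry Itgae, and 0 of the 8 T cell genes listed were called, with a summed level of 114 to 127 CPM in the controls and 142 to 176 CPM in LPS libraries. The part of T cells in the level of Itgae was not tested. Haspin, on the opposite strand inside Itgae (2810 bases shared), had 45 to 212 reads per library.

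The transcription factors of cDC1 did not pass the test. Irf8 (ENSMUSG00000041515, chromosome 8, 120736358 to 120756694) measured 61.3, 60.5 and 67.6 CPM in the controls and 71.2, 87.7 and 69.3 CPM in LPS libraries. The groups did not overlap, but the difference of 0.27 ± 0.19 was small beside its error (adjusted p = 0.35). Among other cells that use Irf8, 0 of 8 B cell genes and 2 of 8 monocyte and macrophage genes were called higher (B cell sums 169 to 317 CPM in the controls and 241 to 279 CPM in LPS libraries). Monocyte and macrophage sums did not overlap, at 346 to 454 CPM in the controls and 555 to 740 CPM in LPS libraries, and the part of these cells in the level of Irf8 was not tested. Batf3 (ENSMUSG00000026630, chromosome 1, 191097847 to 191108945) measured 3.45, 2.61 and 4.31 CPM in the controls and 1.41, 3.62 and 2.83 CPM in LPS libraries, which overlapped (-0.39 ± 0.42, adjusted p = 0.54). The lowest value was that of LPS 1, from 38 reads.

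The 5 cDC1 members thus did not move as a block: 1 fell, 3 lay above control without passing and 1 lay below. Clec9a and Xcr1 parted in every LPS library. The TPM of Clec9a was 41.8, 34.1 and 36.8 times that of Xcr1 in the controls and 13.2, 9.86 and 11.4 times in LPS libraries, a log2 difference of -1.72 (exact permutation p = 0.1, 2-sided, adjusted 0.18 over 9 comparisons). The 2 genes of the whole conventional lineage parted in the same way, since Zbtb46 had 8.39, 7.68 and 9.48 times the TPM of Flt3 in the controls and 4.01, 2.69 and 3.23 times in LPS libraries (log2 difference -1.38, exact permutation p = 0.1, adjusted 0.18). In each pair the 2 genes separated these groups in opposite directions. Their ratios therefore had to separate too, so these permutation p-values could not differ from 0.1 and add no support.

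**Figure D2:**
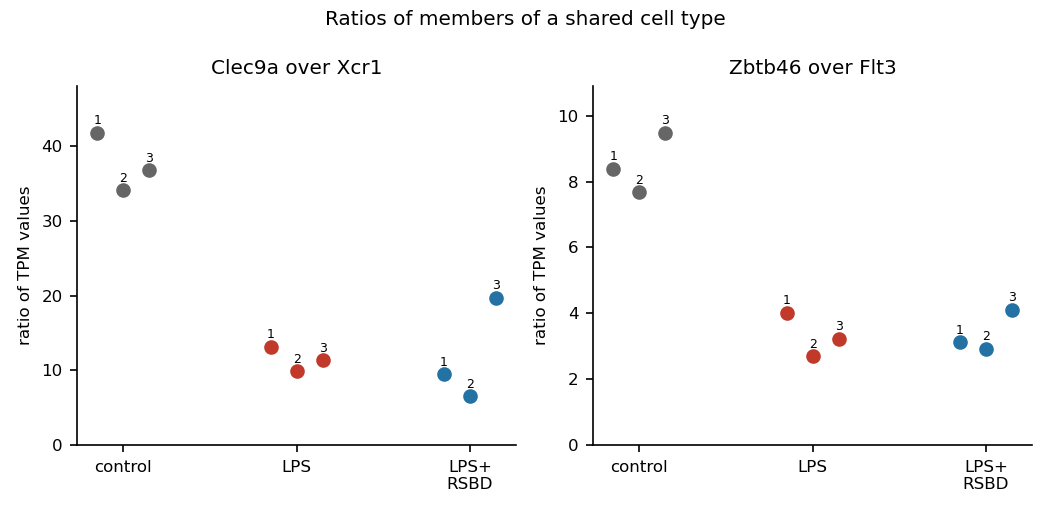
Ratio of the TPM of Clec9a to that of Xcr1 (left) and of Zbtb46 to that of Flt3 (right) in each library, with points numbered by replicate and axes starting at 0. Control libraries sit above all LPS and RSBD libraries in both panels, and RSBD 3, at 19.7 and 4.11, is the highest of the LPS-exposed libraries.

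Cd209a, a lectin of the DC-SIGN family found on cDC2 and on cells derived from monocytes (ENSMUSG00000031494, chromosome 8, 3743397 to 3748984), varied within groups more than between them. It measured 9.25, 13.7 and 3.99 CPM in control, 3.45, 12.3 and 14.8 CPM in LPS, and 18.01, 7.13 and 6.43 CPM in RSBD libraries. The highest library exceeded the lowest 3.44-fold in control, 4.29-fold in LPS and 2.80-fold in RSBD. The difference after LPS was 0.18 ± 0.61 (adjusted p = 0.861) and had the opposite sign without control 3 (-0.17) or LPS 3 (-0.16).

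Fscn1, the actin-bundling protein fascin of mature dendritic cells (ENSMUSG00000029581, chromosome 5, 142960343 to 142973185), measured 9.92, 15.8 and 10.1 CPM in the controls and 13.6, 25.8 and 20.7 CPM in LPS libraries. LPS 1 lay below control 2, so the groups overlapped, and the difference of 0.74 ± 0.44 did not pass (adjusted p = 0.263).

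**Figure D3:**
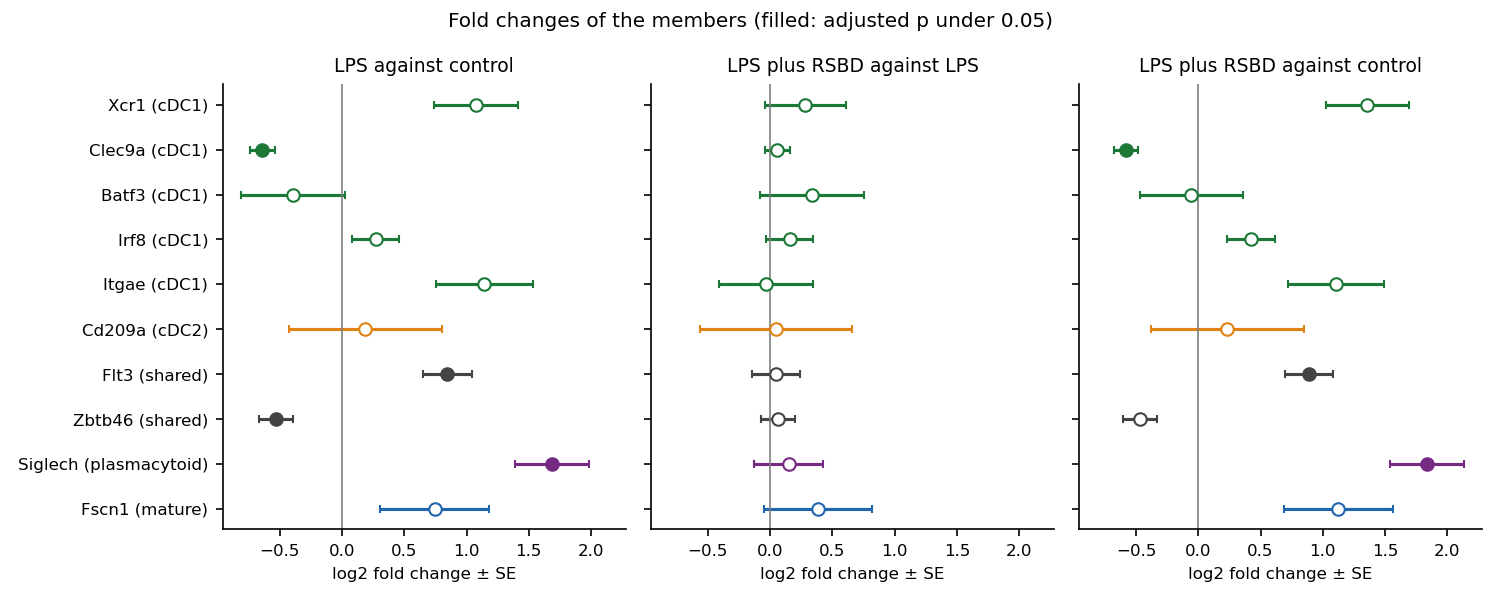
Log2 fold change with its standard error from the edgeR fit (horizontal axis) for each gene (vertical axis), filled where past the threshold, in LPS against control, LPS plus RSBD against LPS, and LPS plus RSBD against control (panels). Siglech at 1.69 and Clec9a at -0.64 mark the ends of the range after LPS, and in the middle panel every gene lies between -0.03 and 0.38.

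RSBD given after LPS was compared with LPS alone to ask whether the decoction altered these genes. None of the 10 members was called by edgeR (0% of all genes were), and 0 of the 10 had an unadjusted p under 0.05, against 9.42% of all genes (1473 genes). DESeq2 called 153 genes in this comparison and limma on log2(TPM + 1) called 1, with 0 members among either. The groups overlapped in all 10 members (12.6% of all genes did not overlap). Differences ran from -0.03 ± 0.38 for Itgae to 0.38 ± 0.43 for Fscn1, with a median of 0.11 against 0.01 over all genes.

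The precision differed widely between members. Clec9a measured 55.6, 55.9 and 55.9 CPM in RSBD libraries, a narrow band inside the range of the LPS libraries (0.06 ± 0.10, adjusted p = 0.898), and Zbtb46 51.8, 61.4 and 52.2 CPM (0.06 ± 0.14, adjusted p = 0.925). Siglech measured 6.69, 4.16 and 3.82 CPM, on both sides of the LPS libraries (0.15 ± 0.28, adjusted p = 0.909). Cd209a had the widest error of the members (0.05 ± 0.61, adjusted p = 0.988), so that a missed threshold says least about this gene.

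RSBD libraries disagreed with each other in most of the other members. Xcr1 measured 7.95, 11.5 and 3.85 CPM (0.28 ± 0.33 against LPS, adjusted p = 0.838), Itgae 10.7, 16.04 and 4.36 CPM, and Fscn1 19.8, 45.6 and 12.9 CPM. RSBD 2 was the highest of all 9 libraries in 6 of the 10 members: Xcr1, Batf3, Irf8, Itgae, Flt3 and Fscn1. RSBD 3 was the lowest of the 6 LPS-exposed libraries in 6 members, and its Itgae level equalled that of control 1. The highest RSBD library exceeded the lowest 3.68-fold for Itgae, 3.53-fold for Fscn1 and 2.99-fold for Xcr1, but 1.01-fold for Clec9a.

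As named above, RSBD 2 was also the highest library in Irf8, Flt3 and Batf3. Irf8 measured 79.95, 112.5 and 61.6 CPM (0.16 ± 0.19, adjusted p = 0.854), Flt3 12.6, 16.3 and 9.38 CPM (0.04 ± 0.19, adjusted p = 0.966) and Batf3 2.30, 5.23 and 2.44 CPM (0.34 ± 0.42, adjusted p = 0.855). Without RSBD 2, the signs of Xcr1, Batf3, Irf8, Flt3, Zbtb46 and Fscn1 against LPS turned negative (-0.29 to -0.021). RSBD 2 also stood apart in T cell genes, with a summed level of 296 CPM over 8 genes against 152 and 127 CPM in the other RSBD libraries, and in Cd8a, the CD8 T cell coreceptor, at 56.9 against 21.03 and 17.3 CPM. Whether the T cell level bears on these members was not tested.

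**Figure D4:**
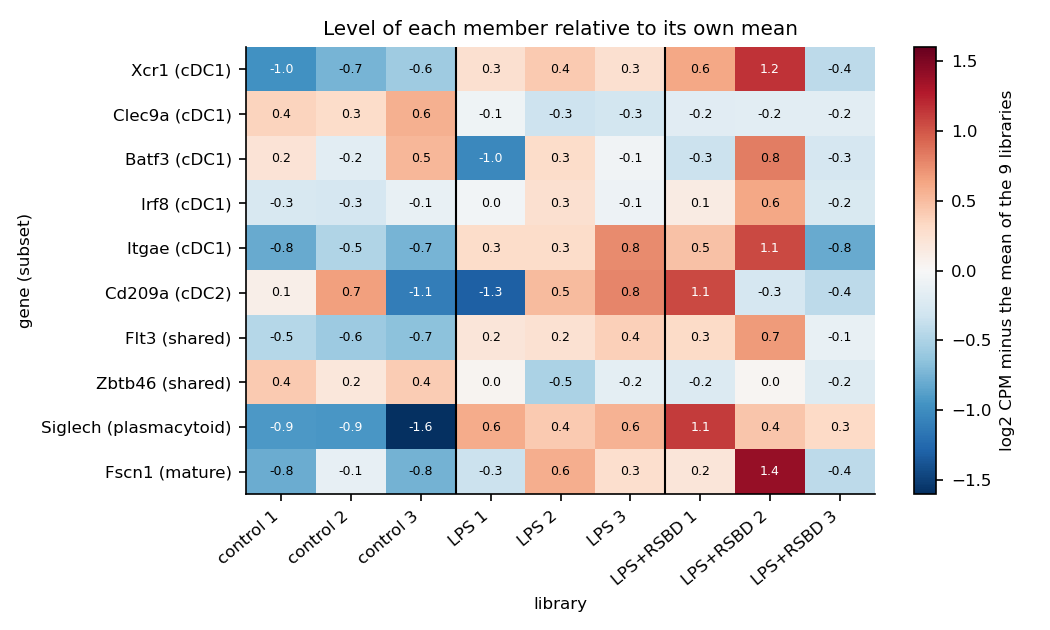
Log2 CPM of each gene minus its mean over the 9 libraries (colour and printed value), with libraries in columns and the genes by subset in rows. RSBD 2 is the highest library for 6 of the 10 genes, and Clec9a and Zbtb46 run against Siglech, Flt3 and Xcr1 in the control columns.

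Against control, RSBD libraries repeated the calls for 3 members: Siglech (1.84 ± 0.30, 3.57-fold, adjusted p = 0.0147) and Flt3 (0.89 ± 0.19, adjusted p = 0.038) were higher and Clec9a (-0.58 ± 0.10, adjusted p = 0.017) lower. Over all genes, 3.7% were called, 1.89% higher and 1.8% lower. These libraries are compared with the same 3 control libraries as the LPS group, so the calls of the 2 comparisons are not independent. The groups did not overlap in 5 members, Xcr1 and Zbtb46 being the others, against 30.4% of all genes. Xcr1 just missed the threshold (1.36 ± 0.34, adjusted p = 0.053), and Zbtb46 (-0.47 ± 0.14, adjusted p = 0.0848) also did not pass.

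Itgae (1.11 ± 0.39, adjusted p = 0.133), Fscn1 (1.13 ± 0.44, adjusted p = 0.171) and Irf8 (0.42 ± 0.19, adjusted p = 0.224) overlapped control, in each case through RSBD 3. Per 1000 Ptprc reads, Siglech stayed above control at 19.0, 9.27 and 6.62, whereas Flt3, at 35.7, 36.4 and 16.3, did not. The count of 3 members called became 1 without control 2, 0 without control 3, 1 without RSBD 2 and 5 without RSBD 3. Over all genes the share called was 0.596%, 0.748%, 0.615% and 3.56% in these fits, against 3.7% with all libraries. Siglech lost its call without control 2 or 3 (adjusted p = 0.0539 and 0.052). Clec9a lost its call without control 3 or RSBD 2 (0.0582 and 0.0674) and in limma on log2(TPM + 1) with no filter (0.0718). Flt3 was called in 5 of 17 alternatives (highest 0.125).

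A wider set of 70 genes of the same subsets, their ligands and partners was tested in the same fit, and after LPS 19 were called higher and 1 lower (8.79% and 8.63% of all genes), with a median of 0.43. These genes too had been chosen with earlier results of these data known, so the shares are no test of the set. The higher calls fell on 8 of 12 general dendritic cell genes, 5 of 12 cDC1 genes, 3 of 12 plasmacytoid genes, 2 of 12 cDC2 genes and 1 of 12 maturation genes, and on 0 of 10 ligands and partners. The general list was Itgax, Ciita, Cd74, Kmo, Dpp4, Traf1, Bcl11a, Spi1, Ikzf1, Csf2ra, Csf2rb and Haao. It includes genes that other leukocytes use too, so its calls are not those of dendritic cells alone. Without control 1, 2 or 3 the 20 calls became 12, 9 and 7, and without LPS 2 they became 7. The share of all genes called in these fits was 12.2%, 5.66%, 6.33% and 4.98%, against 17.4% with all libraries. Of those named here, Naaa, Wdfy4, Tlr7 and Itgax were called in all 17 alternatives.

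Among cDC1 genes, Naaa, a lysosomal amidase, rose from 70.04 ± 7.10 to 129 ± 15.1 CPM (0.88 ± 0.11, adjusted p = 0.00316). Wdfy4, which cDC1 need for cross-presentation, measured 46.9, 57.6 and 42.0 CPM in the controls and 93.02, 81.6 and 82.6 CPM in LPS libraries, all higher (0.81 ± 0.15, adjusted p = 0.0101). Cadm1, an adhesion molecule, and Tlr3, the sensor of double-stranded RNA, rose by 0.53 and 0.34 (adjusted p = 0.0149 and 0.0256). Both calls were lost without control 2 or 3 (highest adjusted p = 0.0592 and 0.13). That of Tlr3 was also lost without LPS 2, in every limma fit and with the replicate block. Naaa and Wdfy4 therefore moved in the direction of Xcr1 and opposite to Clec9a. The part of other lung cells in the levels of these cDC1 genes was not tested.

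In the cDC2 list, Sirpa, an inhibitory receptor shared with macrophages, rose by 0.76 ± 0.13 (adjusted p = 0.00773) and the lectin Clec4a1 by 1.38 ± 0.29 (adjusted p = 0.0142, lost without control 2 at 0.0579). Irf4, the transcription factor of the subset, measured 31.1 ± 4.25 CPM in the controls and 32.98 ± 5.14 CPM in LPS libraries (0.08 ± 0.20, adjusted p = 0.799). In RSBD libraries it measured 47.1 ± 13.7 CPM, which is 0.51 ± 0.20 above LPS and did not pass (adjusted p = 0.487).

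Of the 12 plasmacytoid genes, 6 lay above control and 6 below after LPS (median 0.11), and 9 were not called. Among those called, Tlr7, an X-linked sensor of single-stranded RNA that monocytes and macrophages also use, rose from 12.1 ± 0.469 to 32.8 ± 8.05 CPM (1.44 ± 0.21, adjusted p = 0.00476). Bst2, the antiviral protein tetherin, and Runx2, a transcription factor, rose by 0.62 and 0.50 (adjusted p = 0.0465 and 0.031), but both lost the call without any 1 control library or LPS 2 (highest adjusted p = 0.146 and 0.313), Runx2 also without LPS 1 and Bst2 also without LPS 3 or RSBD 3. Tcf4, the factor that sets the lineage, measured 321 ± 6.27 CPM in the controls and 301 ± 24.4 CPM in LPS libraries (-0.09 ± 0.09, adjusted p = 0.478). Many lung cells express Tcf4, so its level is not one of plasmacytoid cells alone.

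Itgax, the CD11c integrin of dendritic cells and alveolar macrophages, rose the most among general dendritic cell genes named, from 33.2, 40.2 and 36.8 CPM in control to 74.6, 107.9 and 96.4 CPM in LPS libraries (1.34 ± 0.22, adjusted p = 0.00801). Ikzf1, a leukocyte transcription factor, rose by 0.61, and Kmo and Haao, enzymes of tryptophan breakdown, by 1.14 and 1.06 (adjusted p = 0.0185, 0.0242 and 0.0239). All 3 lost the call without control 3 or LPS 2, Kmo also without control 1 or LPS 3 and Haao also without LPS 1 (highest adjusted p = 0.099, 0.076 and 0.0647). Macrophage markers moved with this list: of 8 alveolar macrophage genes 4 rose, with sums of 1132 to 1496 CPM in the controls and 1747 to 3590 CPM in LPS libraries. Most of that sum is Chil3 (1123 ± 193 CPM in control libraries, 2378 ± 866 CPM after LPS), which did not pass (adjusted p = 0.0674), and Marco and Fabp4 lay below control without passing (-0.31 ± 0.68 and -0.40 ± 0.35, adjusted p = 0.784 and 0.448). The part of macrophages in this list was not tested.

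Ccr7, the receptor that takes maturing dendritic cells to lymph nodes, measured 13.3, 14.6 and 7.26 CPM in the controls and 24.2, 22.5 and 22.4 CPM in LPS libraries. It rose by 0.97 ± 0.22 (adjusted p = 0.0181, lost without LPS 2 at 0.0587) while the other 11 maturation genes held no other higher call. Socs2, a suppressor of cytokine signalling, fell by 0.25 ± 0.07 (adjusted p = 0.0433) and kept this call in 2 of 17 alternatives (highest adjusted p = 0.15).

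The ligands did not pass the test. Flt3l, the ligand of Flt3, measured 68.1, 62.2 and 70.1 CPM in the controls and 59.3, 52.5 and 52.2 CPM in LPS libraries, with no overlap (-0.29 ± 0.11, adjusted p = 0.102), so that receptor and ligand lay on opposite sides of control. RSBD libraries measured 76.99, 66.8 and 56.8 CPM for Flt3l (0.29 ± 0.11 against LPS, adjusted p = 0.485). Xcl1, the ligand of Xcr1, had 5 to 77 reads per library and differed by 0.95 ± 0.71 after LPS (adjusted p = 0.372). NK cells, a source of Xcl1, were represented by 8 genes of which 6 rose, with summed levels of 20.5 to 26.5 CPM in control, 46.8 to 69.3 CPM in LPS and 65.1 to 95.5 CPM in RSBD libraries.

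Against LPS alone, RSBD left 0 of the 70 genes called (0% of all genes). Against control, RSBD libraries showed 8 higher and 0 lower calls of 70 (1.89% and 1.8% of all genes): Naaa (0.73), Wdfy4 (0.94), Gcsam (1.47), Tlr7 (1.06), Ccr7 (1.03), Itgax (1.28), Kmo (1.36) and Ciita (0.87), the last being the master regulator of MHC class II genes. Their adjusted p ranged from 0.0136 for Naaa to 0.0424 for Ciita. The 8 calls became 1, 2 and 3 without control 1, 2 or 3, 14 without LPS 1, 5 without LPS 2, 5 without RSBD 1 and 2 without RSBD 2. In the same order, the share of all genes called was 1.52%, 0.596%, 0.748%, 6.08%, 2.17%, 1.97% and 0.615%, against 3.7% with all libraries.

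The tested genes with the pattern most like 4 of the members over the 9 libraries were found by the root mean square difference of centred log2 CPM, searched over 15635 genes. For Xcr1 they were Ctsw, a protease of cytotoxic lymphocytes (0.21), Tlr11, a sensor of microbial profilin that cDC1 use (0.21), and Traip, a ubiquitin ligase (0.23). Those nearest to Fscn1 were Vnn1 (0.25), Dusp2 (0.25) and Pi15 (0.26), and those nearest to Siglech were Nrep (0.27), Tmem117 (0.28) and Lrrc17 (0.31). No gene came as close to Cd209a, for which Fam220a (0.40), Ces2e (0.42) and Sp5 (0.43) were nearest. All these values share the same libraries and describe likeness only.

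**Figure D5:**
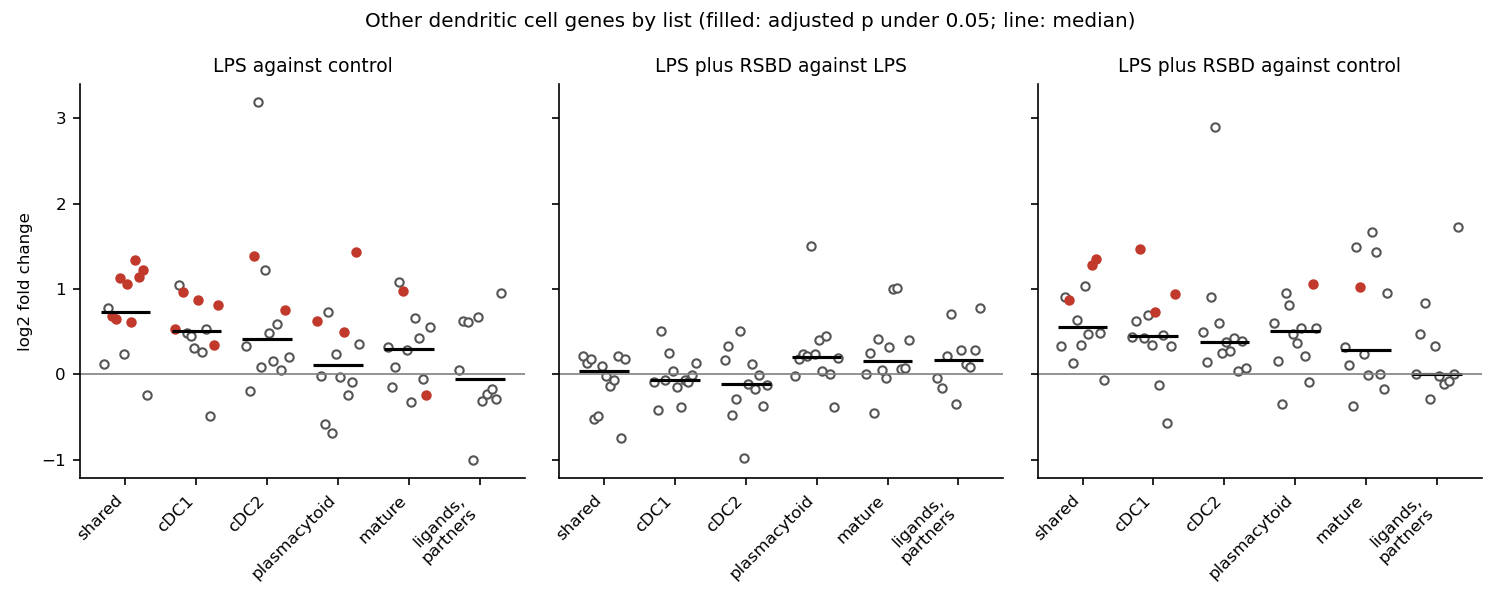
Log2 fold change (vertical axis) of each of the 70 further genes by list (horizontal axis) in each comparison (panels), with filled points past the threshold and a line at each list's median. General dendritic cell genes hold 8 of the 19 higher calls after LPS, and no point is filled in the comparison of RSBD with LPS.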

How the data were processed

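Lung RNA of 9 libraries, 3 per group, was measured by strand-specific paired-end sequencing with 150-base reads. Per the submitters' processing notes, the tools were HISAT2 2.2.1, fastp 0.23.2, DESeq2 1.38.3 and StringTie 2.2.0, with genome build mm10 (GRCm38). The authors deposited a table of estimated counts per gene, whole numbers here used as given, and a table of TPM, whose columns summed to 795528 to 859032 over the genes analysed. Which strand setting the counting used is not given in the sources used here. Columns starting with RS were taken as the RSBD libraries of the same number.

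edgeR 4.0.16 in R 4.3.3 was fitted to the counts of all 9 libraries with group as the only factor, after filterByExpr (minimum count 10) and TMM. Alternatives were DESeq2 1.42.0, RLE factors, no filter, limma 3.58.1 on log2(TPM + 1) and log2(TPM + 0.1) with a minimum of 1 TPM in 3 libraries, only the groups compared, a replicate block, and each library left out. The script was tested on simulated counts. The SE of log2 differences had a median of 0.15 over all genes. Ratios were compared by exact permutation tests, 2-sided.

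The members and gene lists were chosen with earlier results of these data known. All members are named, from each further list up to 4 called genes by smallest p per comparison, and always Flt3l, Xcl1, Irf4, Sirpa, Cadm1, Wdfy4, Bst2, Tcf4, Ccr7, Itgax and Ptprc. Clec1a, Clec1b, Haspin, Gm26597, Cd8a, Pecam1, Cdh5, Cldn5, Tek, Tie1, Kdr, Chil3, Marco and Fabp4 were named after their values were seen. The neutrophil list had 2 of 8 genes called higher after LPS, with sums of 684 to 2007 CPM in control, 2373 to 6578 CPM in LPS and 617 to 2768 CPM in RSBD libraries.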

Additional observations from a re-analysis of the deposited data

How the results depend on the processing

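Clec9a and Siglech kept their direction and call after LPS under all 17 alternatives, while Flt3 and Zbtb46 lost theirs under some. Of the members' values under alternatives, 450 kept direction and side of the threshold, 27 lost and 13 gained a call, and 20 changed sign. After LPS, 4 members and 20 further genes were called: limma on log2(TPM + 1) with no filter called 2 and 8, and the replicate block 13 further genes. DESeq2 and the 2 groups alone each called Xcr1 and Itgae in addition and lost no member's call. With RSBD against control, 3 members and 8 further genes were called: DESeq2 called 6 and 18, limma on log2(TPM + 1) with no filter 1 and 0, limma on log2(TPM + 1) 3 further genes, limma on log2(TPM + 0.1) 4, and the 2 groups alone 4. Leaving out 1 library gave 2 to 6 members and 7 to 20 further genes after LPS, 0 to 0 of both for RSBD against LPS, and 0 to 5 members and 1 to 14 further genes for RSBD against control. In these 3 comparisons the share of all genes called ran from 4.98% to 18.2%, 0% to 0.0253% and 0.596% to 6.08%. The cause was not tested; fewer libraries enter these last fits.

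Sign changes on leaving out 1 library gave, after LPS, Cd209a -0.17 to 0.63 and Irf4 -0.0020 to 0.20. For RSBD against LPS they gave Xcr1 -0.11 to 0.59, Batf3 -0.15 to 0.64, Irf8 -0.10 to 0.33, Itgae -0.49 to 0.32, Cd209a -0.59 to 0.40, Flt3 -0.17 to 0.21, Zbtb46 -0.072 to 0.19, Siglech -0.15 to 0.28 and Fscn1 -0.29 to 0.70, and for RSBD against control Batf3 -0.54 to 0.15 and Cd209a -0.40 to 0.67. The log2 TPM ratio of Clec9a to Xcr1 gave -0.53 to 0.26 and that of Zbtb46 to Flt3 -0.11 to 0.18 for RSBD against LPS. Clec9a reads per 100 Clec1a reads gave -0.21 to 5.41 for RSBD against LPS and -4.21 to 1.41 for RSBD against control. Irf4 after LPS was -0.017 in each limma fit.

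No pairing by replicate number was seen, which with 3 libraries per group does not exclude one. Same-number correlations of deviations ran from -0.21 to 0.12 and passed 0.1 in 1, 0 and 1 of 3 pairs. Those between different numbers ran from -0.16 to 0.19, and in no comparison did every library correlate best with its own number. Under the replicate block Cd209a measured -0.026 for RSBD against LPS. It called 1828 genes after LPS in place of 2723, and 240 in place of 578 for RSBD against control. Without the block, the calls after LPS were 1374 higher and 1349 lower, and 711 higher and 1338 lower by limma on log2(TPM + 1).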
